A study of Homo sapiens with 25 samples.

Results

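WNT ligands act through Frizzled receptors and the co-receptors LRP5 and LRP6, which stop the destruction complex of APC, the AXIN scaffolds and GSK3 from marking beta-catenin for degradation. Beta-catenin, encoded by CTNNB1, then works in the nucleus with TCF factors to switch on target genes, among them the pathway's own inhibitors AXIN2, RNF43 and DKK1. HCT116 is a colorectal carcinoma line that carries an activating mutation of CTNNB1, so its beta-catenin is partly uncoupled from the destruction complex. IGF2BP1 is an RNA-binding protein that reads mRNAs through its KH domains, and the CTNNB1 mRNA and several other WNT pathway mRNAs have been described as its cargo.

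The mRNAs described here are 10 WNT pathway members, DKK1, CTNNB1, AXIN1, AXIN2, TCF7L2, TCF7, LRP6, FZD6, APC and RNF43, out of 63086 counted genes. They were listed by name, and the list was chosen by a value measured in these libraries: DKK1 was higher with the Y396E fusion than with wild-type. The DKK1 values of Y396E against wild-type are therefore given without a test. The wild-type libraries took part in that choice too, so DKK1 of the other mutants against wild-type is a description. RNA bound to mCherry-IGF2BP1 was pulled down with an RFP nanobody and sequenced (RIP-seq) from HCT116 cells in which IGF2BP2 and IGF2BP3 are knocked out and a Tet-OsTIR1-PURO transgene is present, so the controls carry both knockouts too. The fusion was wild-type (WT), S181E or Y396E, in which a glutamate stands for a phosphorylated residue of a disordered linker, or RQ, in which arginines of the first linker are glutamines. Cells received PBS (control) or 500 µM sodium arsenite for 2 h, a treatment that causes oxidative stress, with 3 libraries in each group except 2 for RQ in arsenite. Parental HCT116 cells, which were not engineered, gave 1 background library for each treatment, and they differ from the fusion lines by the knockouts as well as by the fusion. Each line was 1 population sorted within a narrow mCherry gate, so a mutation and its line cannot be told apart.

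The 23 mCherry libraries held between 22246381 and 60273548 counts, the parental arsenite library 18942497 and the parental control library only 1238013. The IGF2BP1 mRNA, which includes the transgene, was at 0 counts in both parental libraries and between 37.2 and 123 CPM (the level used here, counts scaled to library size with TMM factors) with a fusion. It was unequal between lines, with a mean of 66.4 CPM for WT, 66.3 for S181E, 93.0 for Y396E and 111 for RQ in control, and its part in the results was not tested. Group means with a fusion ran from 138 to 242 CPM for the IGF2BP2 mRNA and from 150 to 418 CPM for IGF2BP3. These counts therefore do not show the knockouts, and protein was not measured here. The IGF2BP3 mRNA was 1.72-fold higher than WT in S181E control and 1.56-fold in Y396E control. Of 8 epithelial markers, 5 had medians above 10 CPM (KRT8 at 547, EPCAM at 72.8), while VIL1, LGALS4 and CDH17 had medians at or near 0 CPM. Of 7 markers of blood, endothelium, fibroblasts, muscle and liver, PTPRC and COL1A2 were at 0 in all 23, and the 7 together reached between 3.35 and 15.6 CPM. A RIP level rises with more RNA in the cell as well as with more RNA on the protein. RNA-Seq was not analysed here, so the 2 cannot be told apart.

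The recognition element best known for IGF2BP1 is the zipcode, in which the letters CGGAC and ACA, a short distance apart, are read by the KH3 and KH4 domains. The transcripts of the members were therefore searched on the sense strand for CGGAC and ACA in either order with 10 to 22 bases between them (canonical GENCODE v44 transcripts, hg38). These letters were present in AXIN1, TCF7, APC, RNF43 and FZD6 and in no stretch of the other 5 members. Of 8734 transcripts of tested genes, 30.6% held a match, and among transcripts within 20% of the length of TCF7 the share was 30.1%. The stretches of AXIN1, TCF7, APC and RNF43 that lie in a single exon are shown with both elements in capitals, as examples of what was matched. The stretch of APC is in its 5′ UTR and the other 5 are in coding sequence.
AXIN1, exon 3, minus strand, chr16:314551-314570: ACAccctgtccctcaCGGAC
AXIN1, exon 9, minus strand, chr16:291192-291214: CGGACatggagctctccgagACA
TCF7, exon 2, plus strand, chr5:134115335-134115362: ACAcgctgcgcagagactcttccCGGAC
TCF7, exon 4, plus strand, chr5:134138124-134138148: ACAtcccacccctgcacctgCGGAC
APC, exon 1, plus strand, chr5:112737892-112737914: ACAgaatggaggtgctgcCGGAC
RNF43, exon 8, minus strand, chr17:58360155-58360182: CGGACttgccccctctgcatgttcaACA

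The shorter letters CATA, CATC and CATT, which are also found at IGF2BP1 sites, occurred 10.5 times per kb in DKK1, 9.56 in CTNNB1 and 11.5 in TCF7L2, against a median of 10.8 over the transcripts of tested genes. The lowest density among the members was 6.74 per kb in AXIN1 and the highest 12.9 in FZD6. A match of letters is not a binding site, and an absent match draws no statement about binding.

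With the WT fusion in control, the members fell into separate ranges of level per kb of exon. TCF7L2 had a mean of 109 CPM per kb, DKK1 of 93.4 and TCF7 of 70.6, and neighbours in this order overlapped between libraries. CTNNB1 followed at 8.21 CPM per kb, below every library of TCF7, and overlapped FZD6 at 6.92. AXIN1 had 5.26 CPM per kb, LRP6 4.42, APC 3.30 and RNF43 1.34. AXIN2 was last at 0.0666 CPM per kb. In arsenite the order changed to TCF7L2 (69.4), TCF7 (59.1), CTNNB1 (33.3) and DKK1 (27.2), and no 2 neighbours among these overlapped. FZD6 was next at 11.6 CPM per kb, also clear of its neighbours, while AXIN1, APC and LRP6 overlapped in turn between 5.03 and 3.41.

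**Figure D1:**
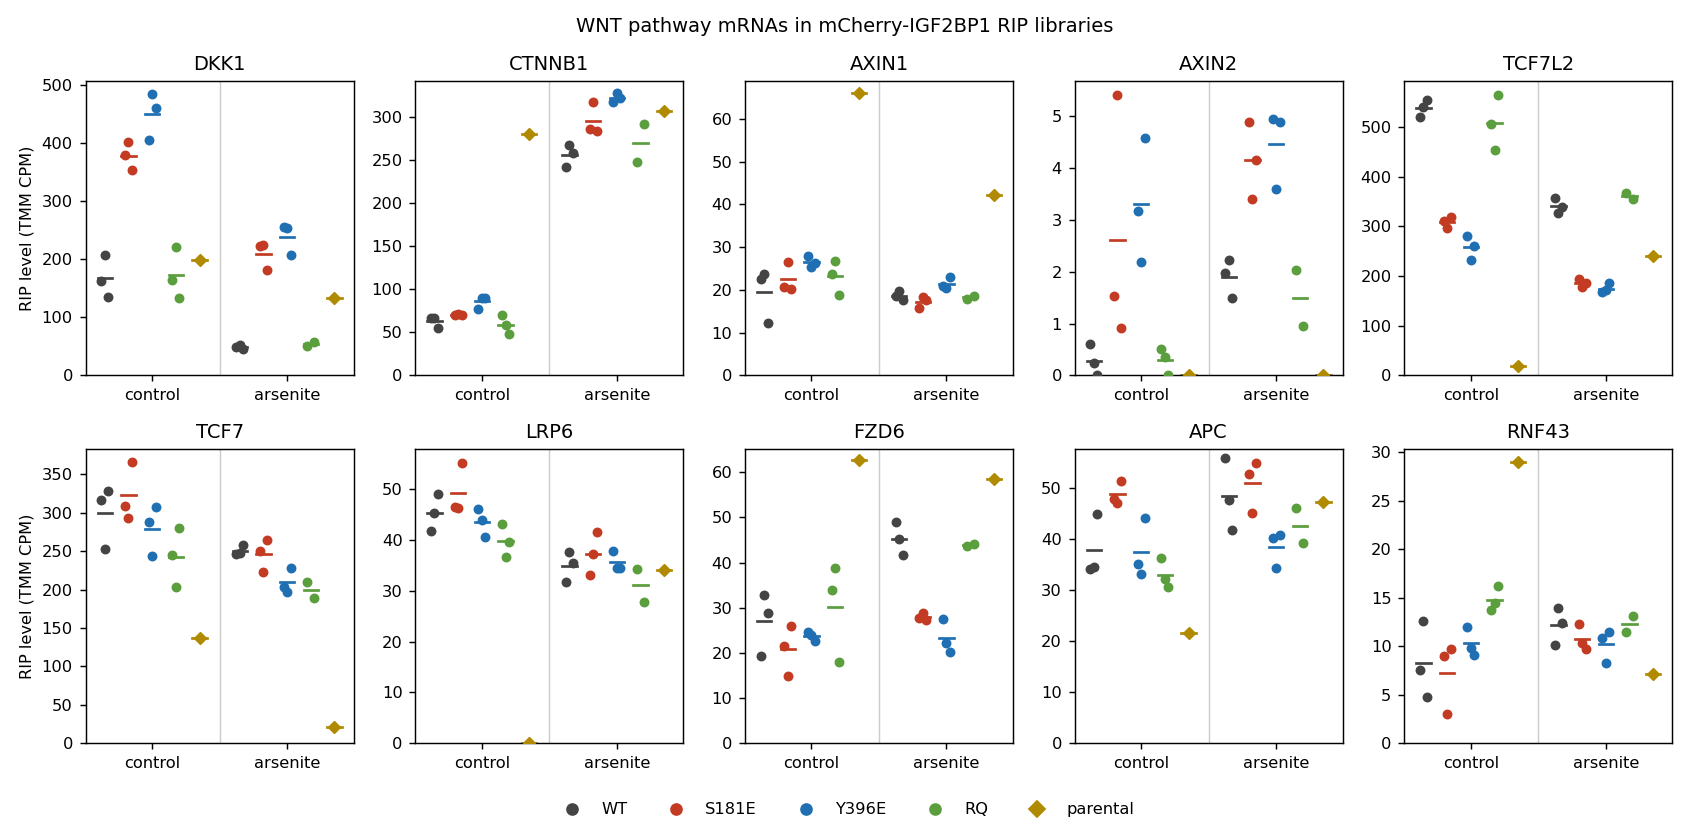
RIP level in TMM CPM (linear axis from 0) of the 10 members in every library, with a bar at each group's mean and a diamond for the single parental library of the treatment. DKK1 is high in S181E and Y396E, TCF7L2 is low in both, and CTNNB1 is about 4-fold higher in arsenite in all 4 lines.

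The first question is which members came down with the fusion above the background of cells without it. Few did. The study defined targets by enrichment over total RNA and a level at least 4-fold over the background. RNA-Seq was not used here, so the first criterion was left out. A mean at least 4-fold over the background library given that treatment was reached by 2 of the 10 members in WT control and by 2 in WT arsenite, where 47.7% and 9.18% of the 8734 tested genes reached it. AXIN2, counted in arsenite, is too low to be among the tested genes, so that share covers no gene like it. Of the tested genes, 3649 had under 3 counts in the parental control library and 34 in the parental arsenite library. They were set against a floor of 3 counts, which is 2.02 CPM in control, while the filter on tested genes was at 10 CPM. The 47.7% in control therefore rests in part on that floor, as does LRP6 there, and it is not a plain background share. There is 1 parental library per treatment, so the ratios over it have no replicate check.

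In control, the members over the threshold were TCF7L2, which encodes a TCF factor that binds beta-catenin, and LRP6, the co-receptor of Frizzled. TCF7L2 had 27 counts in the parental library (exact 95% Poisson interval 17.8 to 39.3, counting error only), or 18.2 CPM, and 538 CPM ± 17.7 (SD, n = 3) with WT, 29.5-fold more. LRP6 had 0 counts in the parental control library and 45.4 CPM with WT, which is at least 22.4-fold higher against a floor of 3 counts. Both stood out in the control only. In the deeper parental arsenite library TCF7L2 had 241 CPM and LRP6 34.0 CPM, and WT was 1.42-fold and 1.03-fold over them. Against the parental arsenite library, TCF7L2 and LRP6 in WT control were 2.23-fold and 1.33-fold higher, short of the threshold, and TCF7 was 13.8-fold higher. With total counts in place of TMM, every WT ratio over a parental library was lower by over 1.5 times. TCF7L2 and LRP6 were then 12.7-fold and at least 9.65-fold higher in WT control, TCF7L2 and LRP6 in WT arsenite were at 0.861 and 0.623 times the parental level, and both members over the threshold in arsenite stayed over it.

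In arsenite, the members over the threshold were TCF7, another TCF factor, and AXIN2, a feedback scaffold of the destruction complex. TCF7 had 21.8 CPM in the parental library and 251 CPM ± 6.34 (SD, n = 3) with WT, 11.5-fold more, and in control 2.18-fold more than the parental 138 CPM. AXIN2 had 0 parental counts in both treatments, and its 1.90 CPM in WT arsenite is at least 14.6-fold higher than the floor of 3 counts. With total counts, these ratios were 6.99-fold for TCF7 and at least 8.88-fold for AXIN2 in arsenite, and TCF7 in control was at 0.937 times the parental level. TCF7 was over the threshold in arsenite in all 4 lines, from 9.16-fold in RQ to 11.5-fold in WT.

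DKK1 and CTNNB1 with WT were under the parental library of their treatment. DKK1, the secreted inhibitor that binds LRP6, had 200 CPM in the parental control library and 133 CPM in the parental arsenite library, and WT had 0.843 and 0.368 times these levels. Against the parental arsenite library, DKK1 in WT control was 1.27-fold higher. With S181E it was 1.90-fold and 1.58-fold over the parental library, and with Y396E 2.26-fold and 1.80-fold, all short of 4-fold. CTNNB1 with WT was at 0.225 times the parental control and 0.834 times the parental arsenite library. AXIN1 and FZD6, a Frizzled receptor, stayed under the parental library in all 8 groups, AXIN1 between 0.295 and 0.509 times and FZD6 between 0.332 and 0.773 times. APC lay between 0.813 and 2.25 times, and its 1.75-fold in WT control turned to 0.751 times with total counts and was also under 1 against the parental arsenite library. RNF43, a ubiquitin ligase that removes Frizzled from the cell surface, lay between 0.250 and 1.72 times, and its 0.286 times in WT control turned to 1.16-fold against the parental arsenite library.

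**Figure D2:**
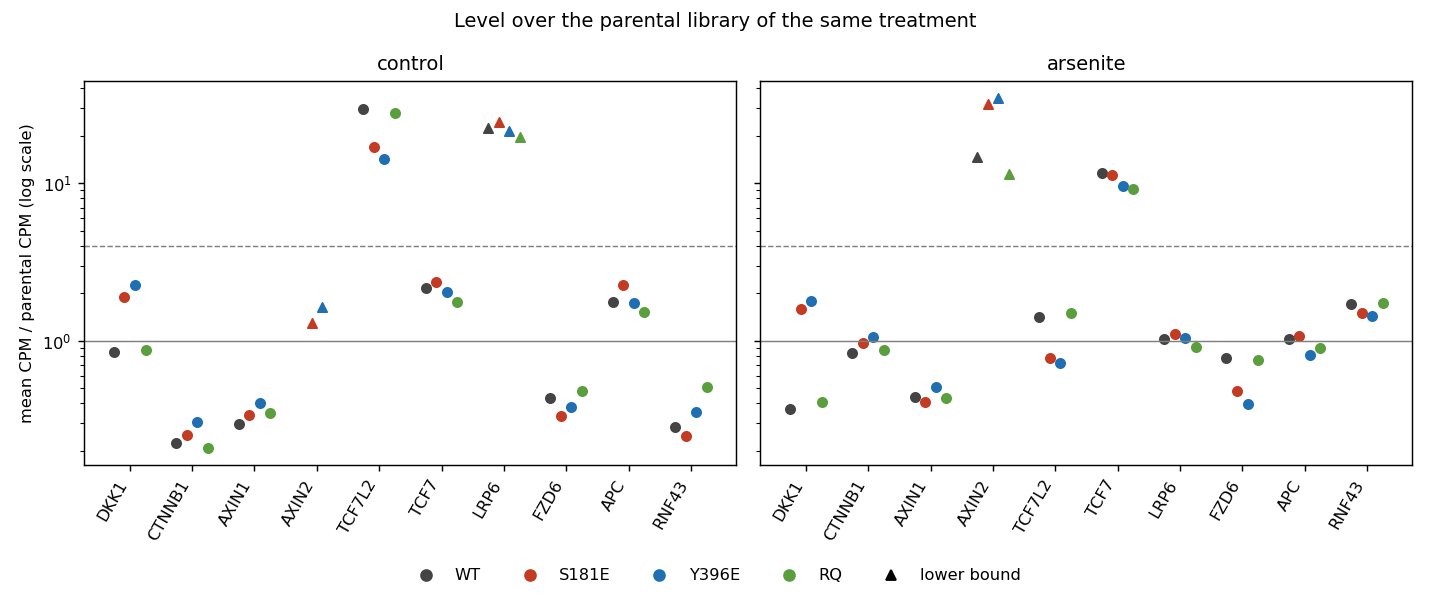
Mean CPM of each group relative to the parental library with that treatment, on a log axis, by member and line, with the solid line at 1 and the dashed line at the 4-fold threshold. Triangles are lower bounds against a floor of 3 parental counts, and AXIN2 in WT and RQ control is at or under that floor and not drawn. TCF7L2 and LRP6 pass in control, and TCF7 and AXIN2 in arsenite.

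The next question is whether the substitutions moved the members. Tests used edgeR's quasi-likelihood test over the 8734 genes that passed a filter on low counts, with Benjamini-Hochberg adjustment over all of them, and calls needed an adjusted p below 0.05 together with a change above 20%. Of the members 9 passed the filter and AXIN2 did not. RNF43, with group means between 7.25 and 14.8 CPM, lay near its limit of 10 CPM. Comparisons of different mutants share the WT libraries, so they are not independent of each other.

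In control, 1 of the 8 tested members besides DKK1 was called for S181E against WT, TCF7L2 lower, where 20.8% of all tested genes were called. DKK1 had 163, 208 and 135 CPM with WT, and 379, 402 and 354 CPM with S181E. The libraries of the 2 lines did not overlap, and DKK1 was 2.26-fold higher with S181E (log2 1.18 ± 0.16 SE). These WT libraries took part in choosing the members, so DKK1 is a description, left out of that count, and no p is given. TCF7L2 had 520, 540 and 555 CPM with WT, and between 297 and 318 CPM in the S181E libraries. Every S181E library lay under every WT library, and TCF7L2 fell 1.73-fold (log2 -0.79 ± 0.09 SE, adjusted p = 1.7e-06). The median of the 9 members, DKK1 included, was 0.13 on the log2 scale, against 0.05 over all genes. APC, the large scaffold of the destruction complex, had a log2 fold change of 0.38 ± 0.14 SE in S181E control without overlap of libraries, and was not called (adjusted p = 0.061). It passed with replicate number as a block (0.037), all biotypes (0.032), total counts (0.0030) and without WT replicate 3 (0.016), all adjusted p.

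For Y396E in control, DKK1 had 406, 486 and 460 CPM, against which all WT libraries were lower. The difference, log2 1.43 ± 0.16 SE, is the value by which the members were chosen. Of the 8 other members tested 2 were called, where 28.9% of all genes were called. TCF7L2 fell 2.06-fold, from 538 CPM to 258 CPM ± 23.3 (SD, n = 3) (log2 -1.05 ± 0.09 SE, adjusted p = 2.9e-08). CTNNB1 had 67.2, 66.6 and 55.6 CPM with WT, and 77.5, 90.3 and 89.8 CPM with Y396E. No libraries overlapped, and CTNNB1 rose 1.37-fold (log2 0.46 ± 0.11 SE, adjusted p = 0.0040). AXIN1 had a log2 fold change of 0.45 ± 0.19 SE and did not pass (adjusted p = 0.072), but did with replicate number as a block (0.032), all biotypes (0.032), total counts (0.0085) and without WT replicate 1 (0.042) or 2 (0.028). The medians over the 8 members and over all genes were -0.02 and 0.05.

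In arsenite 1 of the 8 tested members besides DKK1 was called for S181E, again TCF7L2, where 7.53% of all genes were. DKK1 had 49.1, 52.3 and 45.6 CPM with WT, and 223, 225 and 182 CPM with S181E, 4.28-fold more (log2 2.10 ± 0.16 SE). DKK1 is again a description, left out of the count, as these WT libraries also took part in choosing the members. TCF7L2 fell 1.84-fold, from 342 CPM ± 15.5 (SD, n = 3) to 186 CPM ± 8.78 (SD, n = 3) (log2 -0.88 ± 0.09 SE, adjusted p = 5.6e-07). Neither member overlapped between the lines. FZD6 had 48.9, 45.1 and 41.6 CPM with WT and between 27.4 and 28.9 CPM with S181E. Although its libraries did not overlap either, FZD6 was not called (log2 -0.70 ± 0.22 SE, adjusted p = 0.056). It passed with only the groups compared (adjusted p = 2.1e-05), the DESeq2 Wald test (adjusted p = 0.024) and TMM restricted to genes not exceeding the background (adjusted p = 0.028).

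For Y396E in arsenite, DKK1 had 256, 254 and 208 CPM, 4.99-fold over WT (log2 2.32 ± 0.16 SE, the choosing comparison again). Of the other 8 members 3 were called, where 32.5% of all genes were called. TCF7L2 fell 1.91-fold to 175 CPM ± 9.29 (SD, n = 3) (log2 -0.93 ± 0.09 SE, adjusted p = 7.6e-08). FZD6 had 27.5, 22.2 and 20.3 CPM and fell by 0.93 ± 0.22 SE on the log2 scale (adjusted p = 0.0028). CTNNB1 had 317, 328 and 321 CPM, above the WT range of 242 to 267 CPM, and rose 1.29-fold (log2 0.36 ± 0.11 SE, adjusted p = 0.015). The call of CTNNB1 in arsenite was lost without WT replicate 1 (adjusted p = 0.068) and without Y396E replicate 2 (adjusted p = 0.051). It was also lost when TMM used only genes not exceeding the background, with a log2 fold change of 0.15 (adjusted p = 0.27) beside a median of -0.21 over all genes.

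With the RQ fusion no member was called, in control (6.34% of all genes called) or in arsenite (0.504%). DKK1 had 164, 222 and 134 CPM in control and 51.2 and 57.7 CPM in arsenite, overlapping the WT libraries in both treatments. Its log2 fold changes against WT were 0.04 ± 0.15 SE and 0.16 ± 0.17 SE. TCF7L2 differed by -0.08 ± 0.09 SE and 0.09 ± 0.10 SE. RNF43 had the largest value of a member in RQ control, 13.8, 14.4 and 16.2 CPM against 7.52, 12.6 and 4.73 CPM with WT, and was not called (log2 0.84 ± 0.31 SE, adjusted p = 0.11). TCF7 had a log2 fold change of -0.30 ± 0.12 SE in control (adjusted p = 0.15) and -0.32 ± 0.14 SE in arsenite (adjusted p = 0.45). Without WT control replicate 2, RNF43 (adjusted p = 0.022) and TCF7 (adjusted p = 0.044) passed in RQ control.

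**Figure D3:**
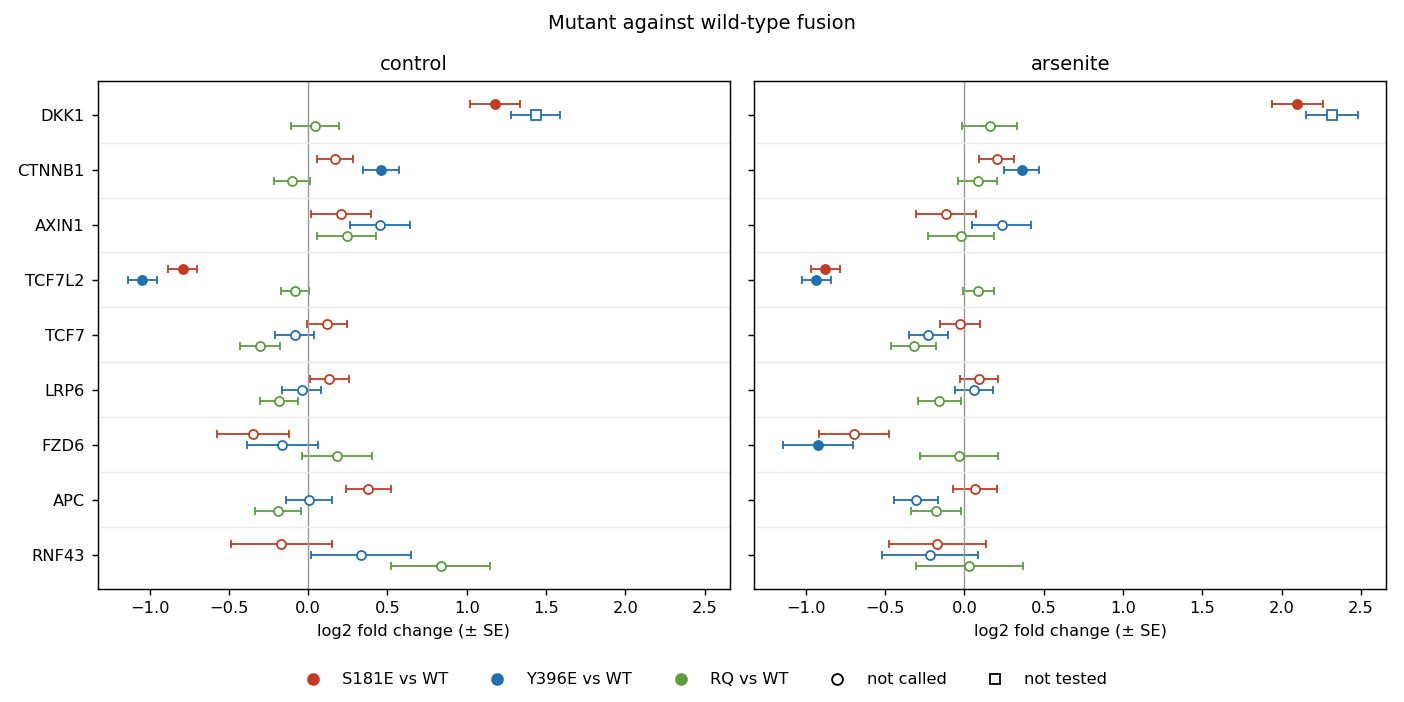
Log2 fold change ± SE of 9 members against WT in control and in arsenite, with filled circles for called genes, open circles for genes not called and squares for DKK1 in Y396E, which is not tested. DKK1 lies to the right and TCF7L2 to the left for S181E and Y396E in both treatments, and the RQ values of both lie at 0 within about 1 SE.

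AXIN2 was too low for the main filter, with 13, 3 and 0 counts in the WT control libraries. In control it had 0.284 CPM ± 0.308 (SD, n = 3) with WT, 2.62 CPM ± 2.44 with S181E, 3.31 CPM (from 2.20 to 4.58) with Y396E and 0.290 CPM ± 0.264 with RQ. In arsenite the means were 1.90, 4.15, 4.47 and 1.49 CPM in the same order. AXIN2 passes the looser filter of edgeR (filterByExpr, 13417 genes) through the groups where it is higher. Its values there are therefore a description, and no p is given. In control they were log2 3.00 ± 0.77 SE for S181E and log2 3.36 ± 0.77 SE for Y396E against WT. Leaving out each library in turn was added for AXIN2 after the data were seen. The S181E libraries spread from 0.914 to 5.41 CPM, and without the highest, replicate 2, the S181E log2 fold change was 1.93. Without WT replicate 1 it was 4.33. With any 1 of the 6 libraries left out, the Y396E value ran from 2.88 without WT replicate 3 to 4.70 without WT replicate 1. In arsenite the log2 fold changes of S181E and Y396E against WT were 1.13 ± 0.64 SE and 1.27 ± 0.64 SE.

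The third question is what arsenite did in each line. The shares of all genes called were large (67.3% in WT, 67.8% in S181E, 65.1% in Y396E and 64.7% in RQ). In WT 6 of 9 members were called, 3 lower and 3 higher. In S181E and Y396E 5 were called, 4 lower and 1 higher, and in RQ 5, 3 lower and 2 higher. DKK1 is counted among the lower members of each line. These shares are near the background, so they say nothing particular to the members. The member medians lay between -0.41 and -0.08 on the log2 scale, against medians over all genes between -0.02 and 0.03.

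CTNNB1 showed the largest change of the 9 members that passed the main filter. With WT it had between 55.6 and 67.2 CPM in control and 242, 267 and 259 CPM in arsenite, a rise of 4.02-fold (log2 2.01 ± 0.12 SE, adjusted p = 9.2e-13). The rise was 4.11-fold in S181E, 3.76-fold in Y396E and 4.56-fold in RQ, and in none of the lines did control and arsenite libraries overlap. The parental libraries had 280 CPM in control and 307 CPM in arsenite, both above the control level of all 4 lines. The control parental value rests on 415 counts.

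DKK1 fell in arsenite in every line. The fall was 3.47-fold in WT (log2 -1.79 ± 0.16 SE) and 3.19-fold in RQ (log2 -1.68 ± 0.18 SE, adjusted p = 3.9e-08). It was 1.83-fold in S181E (log2 -0.87 ± 0.15 SE, adjusted p = 2.7e-05) and 1.88-fold in Y396E (log2 -0.91 ± 0.15 SE). The WT and Y396E libraries took part in choosing the members, so the falls in these lines are given without a p. The difference between S181E and WT in the response was log2 0.92 ± 0.22 SE. The corresponding value for Y396E was log2 0.88 ± 0.22 SE. Both share WT libraries that took part in choosing the members, so they are descriptions and no p is given. The S181E value was log2 0.96 with the DESeq2 Wald test, 0.90 with replicate number as a block and 1.06 without WT control replicate 3.

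TCF7L2 and LRP6 fell in arsenite in all 4 lines. TCF7L2 fell 1.59-fold in WT, 1.69-fold in S181E, 1.47-fold in Y396E and 1.41-fold in RQ, with adjusted p between 1.3e-07 and 1.8e-04. LRP6 fell from 45.4 CPM ± 3.59 (SD, n = 3) to 34.9 CPM ± 3.02 in WT (log2 -0.39 ± 0.12 SE, adjusted p = 0.0075) and by 0.43, 0.29 and 0.36 on the log2 scale in S181E, Y396E and RQ. TCF7 fell in S181E (log2 -0.42 ± 0.12 SE, adjusted p = 0.0050) and Y396E (log2 -0.41 ± 0.12 SE, adjusted p = 0.0055), and had -0.27 in WT and -0.29 in RQ, which did not pass (adjusted p = 0.059 and 0.076) but did without control replicate 2 (adjusted p = 0.013 and 0.017) and with the DESeq2 Wald test (adjusted p = 0.023 and 0.048). With genes of all biotypes LRP6 was called in S181E but not in WT, Y396E or RQ (adjusted p = 0.093, 0.17 and 0.12). LRP6 in Y396E passed only narrowly (adjusted p = 0.041), and leaving out any of 4 Y396E libraries lost it, to an adjusted p of at most 0.14. It was also lost with DESeq2 size factors (adjusted p = 0.055), filterByExpr (0.058) and a block on replicate number (0.051). In RQ its call was lost without control replicate 1 (adjusted p = 0.093) or arsenite replicate 2 (adjusted p = 0.29), and with only the groups compared (adjusted p = 0.091).

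FZD6 rose in WT from 19.3, 32.7 and 28.9 CPM to 48.9, 45.1 and 41.6 CPM (log2 0.74 ± 0.22 SE, adjusted p = 0.0055). It had 0.40 ± 0.22 SE in S181E, -0.02 ± 0.22 SE in Y396E and 0.52 ± 0.24 SE in RQ, none called, although with genes of all biotypes S181E and RQ passed (adjusted p = 0.048 and 0.030). The difference between Y396E and WT, -0.76 ± 0.31 SE, did not pass (adjusted p = 0.20). APC rose in WT (log2 0.35 ± 0.14 SE, adjusted p = 0.033) and RQ (log2 0.36 ± 0.16 SE, adjusted p = 0.046). Both calls were lost without any of several single libraries, WT arsenite replicate 1 (adjusted p = 0.20) and RQ arsenite replicate 1 (adjusted p = 0.32) at most. They were also lost with DESeq2 size factors (adjusted p = 0.054 and 0.051) and with only the groups compared (0.093 and 0.077). With TMM restricted to genes not exceeding the background they were lost too (0.089 and 0.10). In RQ a block on replicate number (0.11) and filterByExpr (0.061) lost the call as well. AXIN1 and RNF43 were not called in any line, though AXIN1 passed in S181E and Y396E with only the groups compared (adjusted p = 0.037 and 0.030), and RNF43 passed in WT without control replicate 2 (adjusted p = 0.015) and in S181E without control replicate 3 (adjusted p = 0.046). AXIN2 was higher in arsenite with the looser filter in WT (log2 2.53 ± 0.77 SE, 52.1% of genes called) and in RQ (log2 2.19 ± 0.78 SE, 47.4%). It passes that filter through the groups where it is higher, so these values are a description too and no p is given. In WT the value moved between 2.04 without control replicate 3 and 3.87 without control replicate 1. In RQ it was 1.55 without arsenite replicate 1 and 1.74 without control replicate 3.

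**Figure D4:**
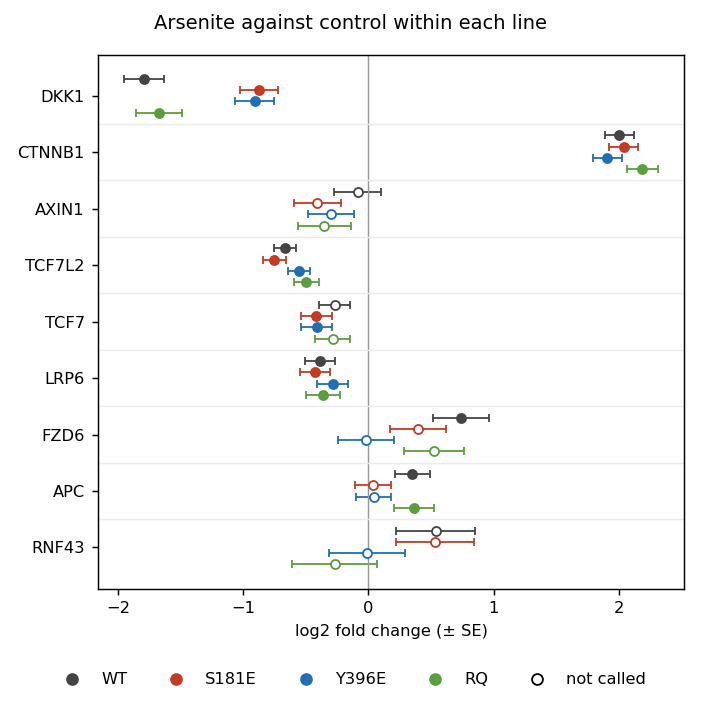
Log2 fold change ± SE of arsenite against control for 9 members in each of the 4 lines, filled where called. CTNNB1 lies near 2 in all lines, DKK1 near -0.9 in S181E and Y396E and near -1.7 in WT and RQ, and TCF7L2 and LRP6 below 0 in all.

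No member was called in the interaction of S181E, Y396E or RQ with arsenite, where 0.389%, 2.85% and 0.0687% of all genes were called. In the Y396E interaction FZD6 had the smallest adjusted p of a tested member.

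The rest of the pathway was read from a list of 94 other WNT genes, of which 45 passed the filter. The list gave 6 calls for S181E in control (4 lower, 2 higher), 13.3% against 20.8% of all genes. It gave 11 for Y396E in control (4 and 7), 24.4% against 28.9%, and 3 for RQ in control (1 and 2), 6.67% against 6.34%. In arsenite it gave 3 for S181E (2 and 1), 6.67% against 7.53%, 15 for Y396E (9 and 6), 33.3% against 32.5%, and 0 for RQ, where 0.504% of all genes were called. These shares are near or under the background and say nothing particular to the list. The list medians were between -0.07 and 0.04 on the log2 scale in these 6 comparisons.

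Among the ligands, WNT16 was lower with S181E and Y396E in both treatments. It had a mean of 109 CPM in WT control, 62.4 in S181E and 68.2 in Y396E, and 76.1, 36.4 and 40.6 CPM in arsenite. The falls were 0.79, 0.66, 1.07 and 0.87 on the log2 scale for S181E and Y396E in control and then in arsenite, all with adjusted p of 4.8e-05 or less. In RQ control WNT16 rose (log2 0.36 ± 0.10 SE, adjusted p = 0.038). WNT9A fell in S181E control (log2 -1.25 ± 0.18 SE, adjusted p = 3.0e-05) and Y396E control (log2 -0.92 ± 0.18 SE, adjusted p = 4.6e-04). Its mean in arsenite was between 5.29 and 6.54 CPM in all 4 lines.

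Extracellular inhibitors other than DKK1 were few, with 2 of 13 tested. NOTUM, an enzyme that inactivates WNT ligands and is a target of the pathway, rose in Y396E control from 19.5 to 37.5 CPM (log2 0.95 ± 0.17 SE, adjusted p = 2.6e-04) and in Y396E arsenite from 17.9 to 38.2 CPM (log2 1.12 ± 0.17 SE, adjusted p = 2.9e-05). In S181E it rose in arsenite (log2 0.58 ± 0.17 SE, adjusted p = 0.035). KREMEN1, a receptor that acts with DKK1 to remove LRP6, fell in Y396E arsenite (log2 -0.74 ± 0.16 SE, adjusted p = 0.0016).

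Of 14 tested transducers and destruction complex genes, 3 were called in Y396E control and 4 in Y396E arsenite, 21.4% and 28.6% against 28.9% and 32.5% of all genes. DVL1 and DVL3 encode Dishevelled proteins, which carry the signal from Frizzled, and moved apart. DVL1 rose in Y396E (log2 0.56 ± 0.11 SE in control and 0.58 ± 0.11 SE in arsenite, adjusted p = 5.2e-04 and 3.2e-04). DVL3 fell in both (log2 -0.59 ± 0.15 SE and -0.65 ± 0.15 SE, adjusted p = 0.0044 and 0.0019) and in RQ control (log2 -0.54 ± 0.15 SE, adjusted p = 0.032). GSK3A, a kinase of the destruction complex, fell in S181E arsenite (log2 -0.35 ± 0.11 SE, adjusted p = 0.044).

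Among the nuclear factors, TCF7L1, a TCF factor mostly known as a repressor, rose in S181E control (log2 0.61 ± 0.16 SE, adjusted p = 0.011), and CTNNBIP1, an inhibitor of beta-catenin binding to TCF, fell there (log2 -0.70 ± 0.13 SE, adjusted p = 5.8e-04). Of the 4 targets tested, CCND1, the cell cycle gene cyclin D1, rose in control in S181E (log2 0.46 ± 0.08 SE, adjusted p = 3.4e-04), Y396E (log2 0.44 ± 0.08 SE, adjusted p = 3.5e-04) and RQ (log2 0.28 ± 0.08 SE, adjusted p = 0.043). WNT7B and WNT10B, both ligands, rose in Y396E, the first in both treatments (log2 0.48 ± 0.13 SE in control, adjusted p = 0.0058) and the second in arsenite (log2 0.81 ± 0.22 SE, adjusted p = 0.0081).

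In arsenite against control the wider list gave 33 calls in WT (17 lower, 16 higher), 30 in S181E, 31 in Y396E and 33 in RQ. The shares, 73.3%, 66.7%, 68.9% and 73.3%, are near the 67.3%, 67.8%, 65.1% and 64.7% of all genes. NKD1, a feedback inhibitor that binds Dishevelled, fell in all 4 lines (log2 between -1.77 and -1.58). DVL2 rose in all 4 (between 1.16 and 1.59), as did WLS, which carries WNT ligands to the cell surface (between 1.24 and 1.55). FZD5, a Frizzled receptor, fell in all 4 (between -1.27 and -0.85), as did CTNNBIP1 (between -1.34 and -0.88). WNT3 and WNT9A, counted among these calls, passed the filter through the control libraries alone, where they are high, so their values are a description. WNT3 had group means between 11.6 and 15.6 CPM in control and between 4.52 and 7.39 CPM in arsenite, and WNT9A between 14.1 and 33.8 CPM and between 5.29 and 6.54 CPM. TCF7L1 rose in all 4 (between 0.48 and 1.28), and so did CD44, a surface glycoprotein (between 0.88 and 1.12). Control and arsenite libraries of CD44 ranged from 913 to 1088 and from 1766 to 2044 CPM in WT.

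**Figure D5:**
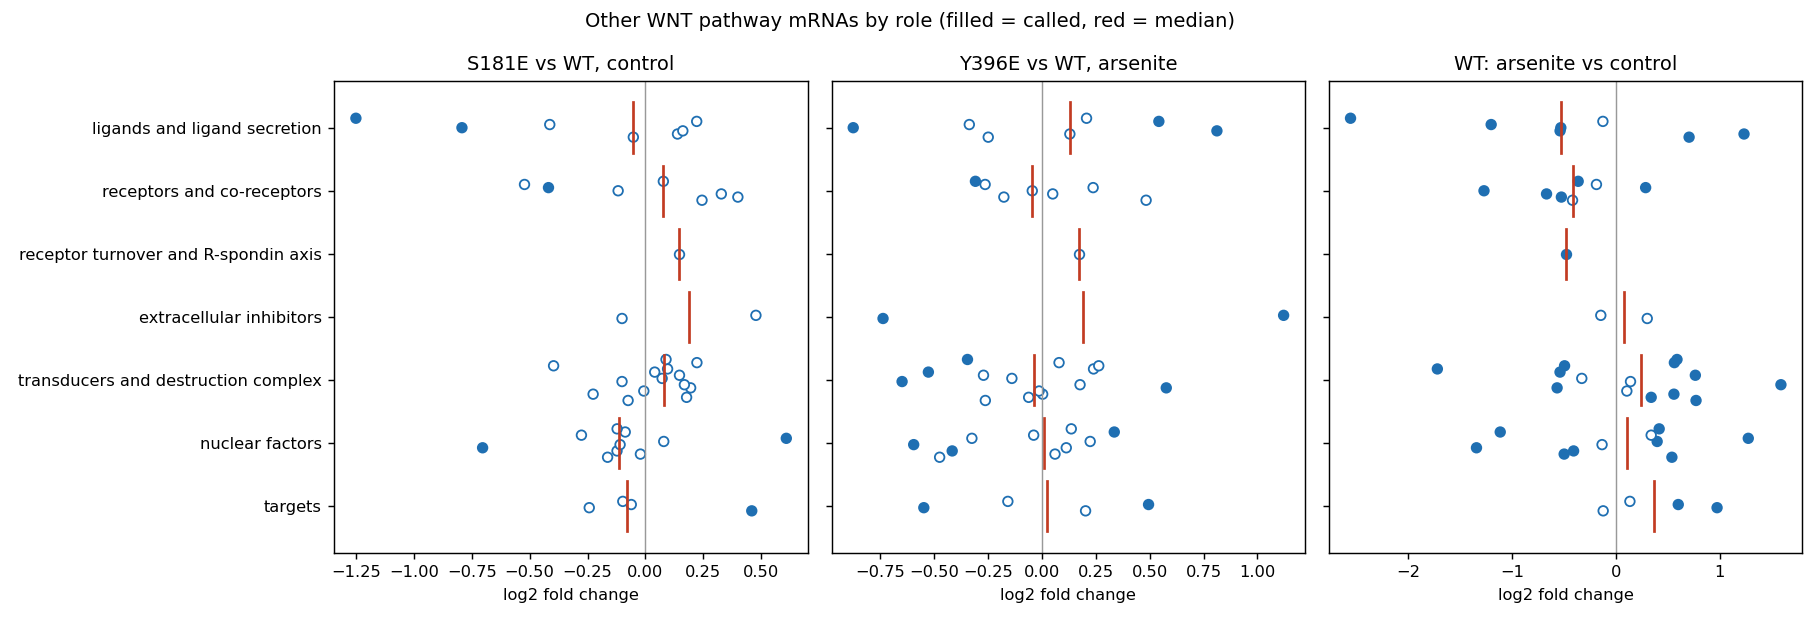
Log2 fold change of the 45 tested genes of the wider WNT list by role in 3 comparisons, filled where called, with a red bar at the median of each role. Called genes lie on both sides of 0 in most roles, and WT arsenite against control has the most of them.

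The genes most like DKK1 over the 23 mCherry libraries were CUEDC1 (Pearson r of log2 CPM 0.934), S100A10 (0.918), LYPD6 (0.918), CDCA4 (0.908) and GINS2 (0.908). All 5 were lowest with WT or RQ in arsenite and highest with S181E or Y396E in control. LYPD6, for instance, had 15.3 CPM in WT control, 33.1 in S181E, 34.8 in Y396E and 12.1 in RQ. Among the other members the correlation with DKK1 was highest for LRP6 (0.619) and lowest for FZD6 (-0.738). These values describe libraries of 8 groups and were not tested.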

How the data were processed

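RNA bound to mCherry-IGF2BP1 was sequenced in 23 libraries of 8 groups, with 2 parental libraries as background. The authors aligned reads to hg38 with STAR 2.7.11b and counted them on exons with featureCounts of Subread 2.0.6, using strand. The deposited values are raw counts per gene, with reads that map to several places left out. Symbols came from GENCODE v44 by identifier (62541 of 63086 matched). Tests on protein-coding genes above 10 CPM in 11.5 or more of these libraries used edgeR 4.0.16 (TMM, 8 groups, quasi-likelihood, R 4.3.3), and DESeq2 1.42.0 served as an alternative. Printed CPM used TMM factors over all 25 libraries. Parental ratios used a floor of 3 counts, which addresses counting error only. The exact 95% Poisson interval of 0 counts reaches 3.69. At that limit LRP6 in WT control was 18.2-fold and AXIN2 in WT arsenite 11.9-fold over the parental library. On simulated counts of the 8734 genes, S181E against WT in control recovered 94.3% of genes changed by 1 on the log2 scale and 38.2% of those changed by 0.5. Recovery was lower for RQ against WT in arsenite (83.9% and 31.2%) and for the S181E interaction (78.3% and 9.52%). In the simulation few genes were changed, in 1 group, and the other groups shared 1 mean per gene. In most comparisons of the data far more genes were called, so these rates do not measure the power of the tests there.

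The members and lists were chosen with earlier results of these data known. Named genes are the members, IGF2BP1, IGF2BP2 and IGF2BP3, and the 5 most like DKK1. From the wider list they are up to 3 genes lowest and 3 highest per comparison among those called without overlap. Dishes were plated separately. Same-numbered S181E and WT arsenite libraries deviated together (correlations 0.283, 0.295 and 0.392). In the other comparisons the correlations were uneven. They ran from -0.122 to 0.448, both in RQ arsenite against control (replicates 1 and 2). The main model held no term for replicate number, and a block on it was an alternative. Sequence stretches of some members are not reported here.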

Additional observations from a re-analysis of the deposited data

How the results depend on the processing

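Members called under other settings kept their number within 1.5 times except as follows. These counts include DKK1 except where Y396E is set against WT. Total counts without TMM gave 4 rather than 2 for S181E in control, and moved the median over all genes from 0.05 to 0.22 there and to 0.32 for Y396E in control. Fitting only the groups compared gave 1 rather than 0 for RQ in arsenite and 3 rather than 5 for RQ arsenite against control. With replicate number as a block, 2 members rather than 0 were called for RQ in control and 1 rather than 0 in the S181E interaction, and it changed no other count by more. The DESeq2 Wald test gave 1 rather than 0 in the S181E interaction. Leaving out 1 library gave between 0 and 2 for RQ in control and between 0 and 1 for the S181E interaction. The member in the S181E interaction was DKK1 each time, so these counts are a description. When both treatments were set against the parental arsenite library, 1 member rather than 2 was over 4-fold in WT control. Of 1754 values of single members under alternatives, 1680 kept their side of the threshold or, for DKK1 in Y396E, stayed within the replicate spread. A further 40 passed it newly, 31 no longer passed and none that was called changed sign. Changes of sign among values not called were not counted. DKK1 in Y396E moved by more than the replicate spread with total counts only (log2 1.70 in control and 2.54 in arsenite) and with TMM restricted to genes not exceeding the background (2.10 in arsenite). The causes were not tested. The shallow parental control library limits every ratio over it, and 3649 of the tested genes had under 3 counts there.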
